A study of Homo sapiens with 4 samples.

Results

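The 10 genes described here build or control the actin cytoskeleton. ACTB and ACTG1 encode the cytoplasmic actins, ACTA2, TAGLN, MYL9, TPM1, TPM2, CNN1 and MYH9 encode contractile proteins or their partners, and SRF encodes the transcription factor named after the serum response. They were taken by gene symbol from the deposited tables, and all 10 were found once each among 58735 genes.

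Actin exists as single molecules and as filaments, and the cell senses the balance between them. The coactivators MRTFA and MRTFB are held by actin monomers, and once filaments use the monomers up they are free to join SRF on a DNA element called the CArG box, from which actin and many contractile genes are transcribed. SRF also works with a separate set of partners, the ternary complex factors, at immediate early genes such as FOS and EGR1. In glioblastoma, the most aggressive primary brain tumor of adults, the actin cytoskeleton carries cell migration and invasion.

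U251 and U87, long-established human lines from glioblastoma, were sequenced here. Their RNA was profiled as Control and after Bru (brusatol, a plant quassinoid known to block protein synthesis and to lower NRF2), which gave 4 libraries with 1 library per condition. According to the text of the study, the cells had been in Bru at its IC50 for 48 h. What the Control cells of the sequencing received is not given in the sources used here. The comparison asks which transcripts differ with Bru in each line, and each condition stands for 1 library of tumor cells grown outside the brain.

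The level of a gene is given as FPKM, sequenced fragments scaled to the length of the gene and to a size of the library. This size differed from the total of the fragments on genes in each library. The fragments behind each FPKM could be recovered and are called reads, and they added up to between 17083896 and 21453561 per library. Intervals are 95% exact intervals made from these reads, and they cover counting error only. They compare single libraries and hold no spread between cultures, so that no p-value is given for Bru. In RNA from whole cultures, fewer cells that express a gene and less of its RNA per cell cannot be told apart.

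VIM and CD44, which glioblastoma lines commonly express, lay between 606 and 701 FPKM and between 94.5 and 125 FPKM. Of the astrocyte markers, SLC1A3 lay between 2.30 and 4.74 FPKM and GFAP at 2.42 FPKM or below, S100B had 9 reads in U251 Control and none elsewhere, and AQP4 had at most 2 reads. SOX2 lay at 129 and 91.2 FPKM in U251 Control and Bru but had at most 2 reads in U87. The 9 glial and glioma markers summed to 1087 and 846 FPKM in U251 Control and Bru and to 790 and 749 FPKM in U87. These sums also hold NES and OLIG2, whose own levels are not given here. Markers of other contractile cells were measured too, because several of the 10 genes are best known from smooth muscle. The 10 smooth muscle and pericyte markers summed to 10.1 and 8.04 FPKM in U251 and to 55.2 and 40.4 FPKM in U87, where CSPG4 alone made 40.1 and 29.2 FPKM. SMTN made most of the sum in U251, at 7.22 FPKM in Control and 5.84 in Bru, and lay at 11.9 and 8.83 FPKM in U87. MYOCD, the coactivator of SRF in smooth muscle, had no read in any library, and DES had at most 2. The 9 fibroblast, endothelial and immune markers summed to between 1.02 and 4.17 FPKM. Of these, 1 had a mean of at least 1 FPKM across the 4 libraries, and DCN had 0 reads throughout. The part of other cell types in the results was not tested.

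The CArG boxes of SRF, ACTG1 and ACTA2 are printed first, since this element links SRF to the actin genes. They were read from the RefSeq promoter windows of GRCh38.p14, which run from 250 bases before to 50 bases after a transcription start. Windows were found for 7 of the 10 genes, and for ACTB, TAGLN and MYL9 none was found. The search covered both strands. SRF has a pair of exact boxes in its own window, between 30 bases and 1 base before the start (chr6:43171239-43171268, plus strand). ACTG1 has an exact box in the 30 bases that begin 104 bases before the start (chr17:81512874-81512903, minus strand). The sequence of ACTA2 begins 131 bases before a start (chr10:88952875-88952904, minus strand) and holds the first of 2 boxes of that window, at positions -121 and -71, each with 1 base off the consensus. SRF has another such box at position 13 after the start. Capitals mark the boxes, and all sequences run from 5′ to 3′.
SRF: CCATATAAGGagcggcctcgCCATAAAAGG
ACTG1: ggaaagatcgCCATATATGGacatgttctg
ACTA2: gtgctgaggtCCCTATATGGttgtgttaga
The consensus begins with a pair of C, ends with a pair of G and has only A or T between them. An exact box was found in 1.29% of all 35116 windows, and a box with exactly 1 mismatch in 17.9%. The windows of TPM1, TPM2, CNN1 and MYH9 held no box with up to 1 mismatch. A match of letters is a description and not evidence of binding.

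ACTB and ACTG1 are shown next, since their coding sequences are close and yet differ at single bases along their length. Of the stretches of 50 bases in ACTG1 transcripts, no single other gene shared more than 0.788%. Whether reads were misplaced between ACTB and ACTG1 was not tested. Over the 1125 coding bases without the stop codon, 1027 bases were identical (91.3%). Against ACTA2, identity was 81.8% for ACTB and 81.9% for ACTG1. The first 60 coding bases come from chr7:5529598-5529657 for ACTB and from chr17:81512295-81512354 for ACTG1, both on the minus strand of GRCh38 in the annotation GENCODE release 29. Capitals mark the 10 bases that differ.
ACTB: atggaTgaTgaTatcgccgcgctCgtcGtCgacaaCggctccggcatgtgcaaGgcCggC
ACTG1: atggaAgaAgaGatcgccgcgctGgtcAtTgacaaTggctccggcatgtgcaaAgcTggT

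Across the 10 genes, ACTB and ACTG1, which had the highest levels, showed the largest differences in FPKM between Control and Bru. Both were lower in Bru in both lines, and ACTG1 stayed under 1.5-fold in each. In U251, ACTB fell 1.60-fold and ACTA2 fell 1.79-fold, while TPM2 rose 1.53-fold. In U87, none of the genes with a mean of at least 1 FPKM moved by 1.5-fold. The log2 ratios of SRF and MYH9 lay between -0.12 and -0.08. MYL9, the myosin light chain, was found in U87 alone.

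Calls were made on the log2 ratio of FPKM + 0.1, over the 12949 genes with a mean of at least 1 FPKM across the 4 libraries. Of the 10 genes, 9 passed this filter and CNN1 did not. Past a 2-fold change in either direction were 0 of the 9 in U251, where 8.80% of all genes were, and 0 of the 9 in U87, where 3.34% were. Past a 1.5-fold change were 3 of the 9 in U251, against 26.8% of all genes, and 0 of the 9 in U87, against 9.06% (4.49% lower and 4.56% higher). In U251, 2 of the 9 were lower, against 15.6% of all genes, and 1 was higher, against 11.3%. MYL9 had no read in U251 and so could not be called there. The median log2 ratio of the 9 was -0.08 in U251 and -0.10 in U87, beside -0.03 and -0.04 over all genes, and without MYL9 it was also -0.08 in U251. The median in U251 came to 0.002 when the reads were scaled to their total. The split of all genes also moved with the scaling: 2014 genes were lower and 1457 higher by 1.5-fold in U251, but 1646 lower and 1851 higher when reads were scaled to their total.

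**Figure D1:**
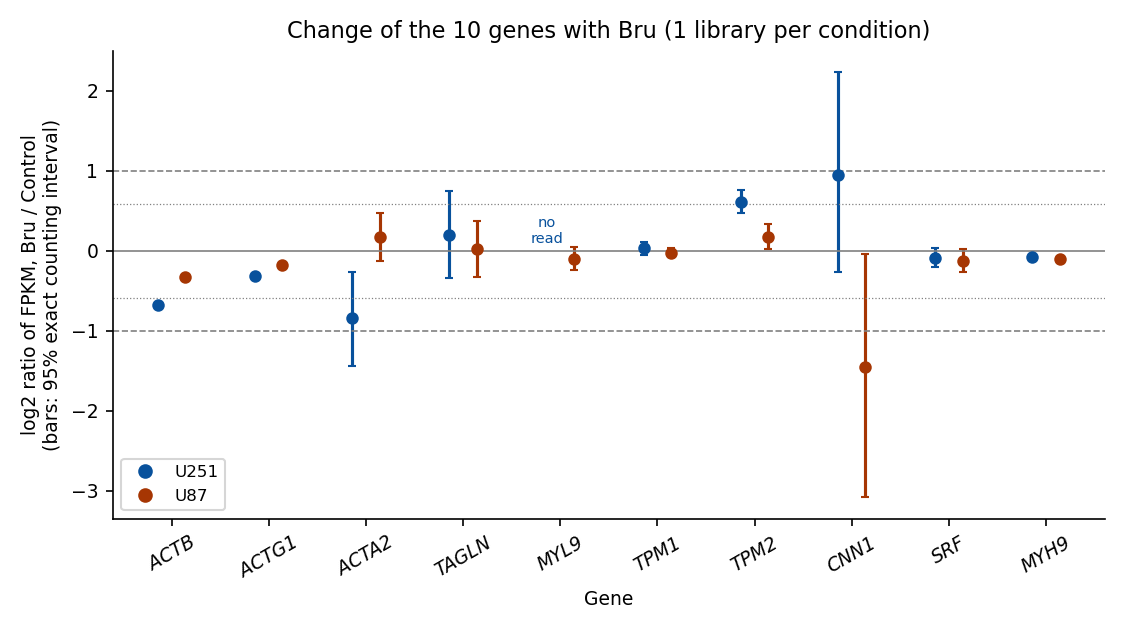
Log2 ratio of FPKM in Bru over Control for the 10 genes (x axis), with U251 in blue and U87 in brown. Bars are 95% exact counting intervals, dashed lines mark 2-fold and dotted lines 1.5-fold. ACTB lies at -0.68 in U251 and -0.32 in U87, TPM2 at 0.61 and 0.18, and the bars of ACTA2, TAGLN and CNN1 are the widest because these genes have the fewest reads.

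SRF is the regulator of the group (ENSG00000112658, chr6:43171299-43181507, plus strand). Its level was 14.1 FPKM in U251 Control and 13.3 in U251 Bru, from 1247 and 1039 reads. In U87 it was 11.2 FPKM in Control and 10.3 in Bru, from 851 and 752 reads. All 4 libraries thus lay close together, with U251 above U87. The log2 ratio of Bru over Control was -0.08 in U251 (95% interval -0.20 to 0.04) and came to 0.00 when reads were scaled to their total. In U87 it was -0.12 (-0.27 to 0.02), and both intervals held 0. Below SRF in log2 ratio stood 45.7% of all genes in U251 and 36.0% in U87. The protein-coding genes with the most similar pair of ratios were EPS8L1, TPP2 and PRR14, at distances of 0.003 to 0.008 on the log2 scale. Such likeness is common at this place, since 600 of 10850 protein-coding genes lay within 0.1 of SRF.

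ACTB encodes beta-actin, the main filament protein at the moving edge of a cell (ENSG00000075624, chr7:5527147-5563784, minus strand). It lay at 1294 FPKM in U251 Control and at 808 FPKM in U251 Bru. In U87 it lay at 1124 FPKM in Control and 899 FPKM in Bru. Both Bru libraries were lower than both Control libraries. The log2 ratio was -0.68 in U251 (-0.69 to -0.66) and -0.32 in U87 (-0.34 to -0.31), from 52710 to 95489 reads per library. These narrow intervals come from the depth alone. Only 12.4% of all genes in U251 and 14.3% in U87 had a lower ratio than ACTB. Its rank by FPKM among all genes went from 14 to 29 in U251 and from 15 to 24 in U87. The protein-coding genes nearest to ACTB in the pair of ratios were PPP2R3B, TM2D3 and DTL, with 155 of 10850 genes within 0.1.

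ACTG1 encodes gamma-actin, the other cytoplasmic form (ENSG00000184009, chr17:81509971-81523847, minus strand). It lay at 1173 FPKM in U251 Control and 944 in U251 Bru, and at 1252 FPKM in U87 Control and 1112 in U87 Bru. As for ACTB, both Bru libraries were below both Control libraries. The log2 ratio was -0.31 in U251 (-0.33 to -0.30) and -0.17 in U87 (-0.19 to -0.16). It did not pass 1.5-fold in either line.

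The balance of the cytoplasmic actins therefore differed between the libraries. FPKM of ACTB over ACTG1 was 1.10 in U251 Control (1.09 to 1.11) and 0.856 in U251 Bru (0.846 to 0.867). In U87 it was 0.897 in Control (0.888 to 0.907) and 0.809 in Bru (0.799 to 0.818). ACTB stood above ACTG1 in U251 Control alone, and the ratio was lower in Bru than in Control in both lines. Its log2 change was -0.36 in U251 (-0.39 to -0.34) and -0.15 in U87 (-0.17 to -0.13). Summed, ACTB and ACTG1 went from 2467 to 1752 FPKM in U251, which is 1.41-fold lower, and from 2376 to 2011 FPKM in U87, which is 1.18-fold lower. They held 0.788% of all reads on genes in U251 Control and 0.589% in U251 Bru, and 0.762% and 0.662% in U87.

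Processed copies of these genes are scattered over the genome and could draw reads away. The 10 annotated ACTB copies held between 4 and 19 reads per library and the 20 ACTG1 copies between 24 and 39, which was at most 0.0611% of the reads of the parent gene. Of all stretches of 50 bases in the transcripts, 4.84% in ACTB and 2.30% in ACTG1 were also present in another annotated gene. Adding the reads of the copies to the parents left the calls of both genes where they were, which so few reads could hardly change. Reads that fit a copy and its parent alike may be missing from both counts, and this was not tested.

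**Figure D2:**
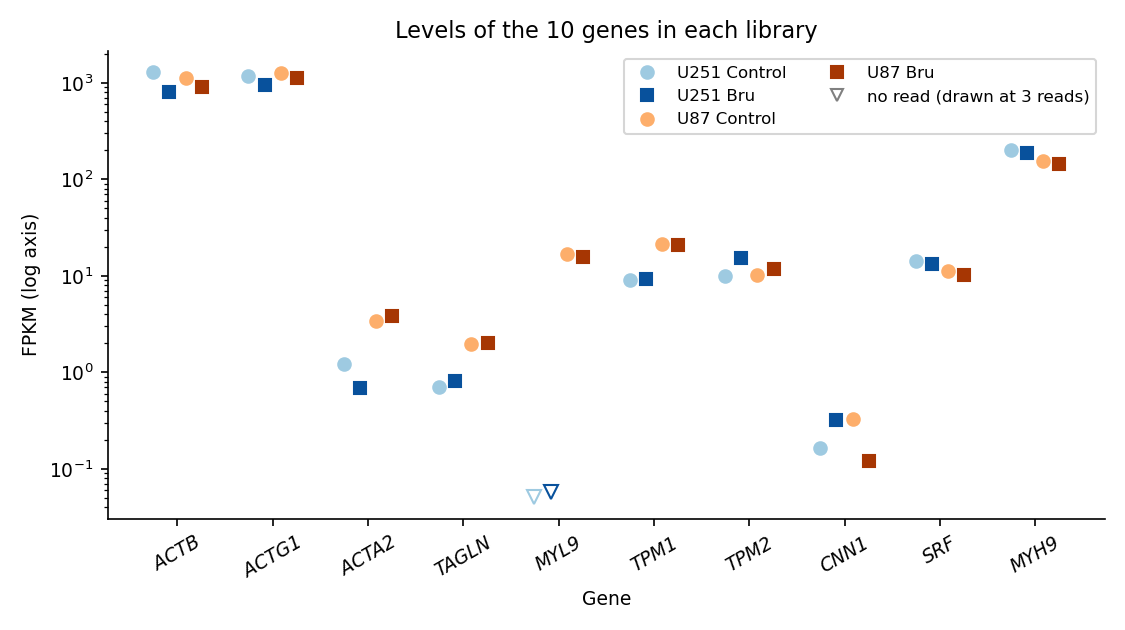
FPKM on a log axis for the 10 genes (x axis) in the 4 libraries, with circles for Control, squares for Bru, blue for U251 and orange to brown for U87. Open triangles mark MYL9 in U251, which had no read and is drawn at the level of 3 reads. ACTB and ACTG1 lie between 808 and 1294 FPKM, MYH9 between 143 and 199.9, and ACTA2, TAGLN and CNN1 at 3.84 or below.

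Smooth muscle actin, ACTA2, is a marker of myofibroblasts and vascular smooth muscle (ENSG00000107796, chr10:88935074-88991339, minus strand). It lay at 1.23 FPKM in U251 Control and 0.689 in U251 Bru, from 77 and 38 reads. In U87 it lay at 3.40 FPKM in Control and 3.84 in Bru, from 183 and 199 reads. U87 was thus above U251 in each condition, and only in U251 was Bru the lower library. The log2 ratio in U251 was -0.84 (-1.44 to -0.26), or -0.76 on FPKM + 0.1, and in U87 it was 0.17 (-0.12 to 0.47). With a pseudocount of 1 the ratio in U251 became -0.40 and no longer passed 1.5-fold. ACTA2 overlaps FAS, STAMBPL1 and ACTA2-AS1 on the other strand. FAS had 354 and 311 reads in U251 and 763 and 1040 reads in U87, and reads of overlapping genes cannot be told apart where strand is not used. The part of FAS in the level of ACTA2 was not tested. ACTA2 made between 90.2% and 96.2% of the FPKM of the 4 muscle actins, and ACTA1, ACTC1 and ACTG2 had at most 4 reads each in any library, as did ACTBL2.

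TAGLN, the actin-bundling protein transgelin, is a classic target of SRF in smooth muscle (ENSG00000149591, chr11:117199321-117204782, plus strand). It lay at 0.706 and 0.813 FPKM in U251 Control and Bru, from 58 and 59 reads, and at 1.98 and 2.01 FPKM in U87, from 140 and 137 reads. The lines differed, while Control and Bru were nearly level within each. The log2 ratio was 0.20 in U251 (-0.34 to 0.75) and 0.02 in U87 (-0.33 to 0.37), and both intervals held 0. Its paralog TAGLN2 lay between 119 and 263 FPKM and made at least 97.3% of the FPKM of the 3 transgelins. Nearest to TAGLN in the pair of ratios were VAT1, BANF1 and CEBPZOS, with 655 of 10850 protein-coding genes within 0.1. TAGLN overlaps PCSK7 on the other strand, which had between 392 and 933 reads.

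CNN1, calponin of differentiated smooth muscle, was barely expressed (ENSG00000130176, chr19:11538717-11550323, plus strand). U251 gave 10 reads in Control and 17 in Bru, or 0.165 and 0.318 FPKM, and U87 gave 17 and 6 reads, or 0.326 and 0.119 FPKM. Its intervals were the widest of the 10 genes. The log2 ratio was 0.94 in U251 (-0.27 to 2.23) and -1.45 in U87 (-3.08 to -0.04). On FPKM + 0.1 the ratio in U87 was -0.96. A change of 2-fold in U251 was not resolved at this depth. CNN3 made between 59.0% and 86.3% of the FPKM of the 3 calponins and CNN2 nearly all the rest.

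Nonmuscle myosin II is the motor that pulls on these filaments, and MYH9 encodes its main heavy chain (ENSG00000100345, chr22:36281277-36388067, minus strand). MYH9 lay at 199.9 FPKM in U251 Control and 189 in U251 Bru. In U87 it lay at 153 FPKM in Control and 143 in Bru. The lines differed more than the conditions did. The log2 ratio was -0.08 in U251 (-0.10 to -0.06), which became 0.00 when reads were scaled to their total, and -0.10 in U87 (-0.13 to -0.07). Its share of the FPKM of the 4 myosin II heavy chains was 90.5% in U251 Control and 95.1% in U251 Bru, and 99.6% and 99.5% in U87. The difference in U251 came from MYH10, the heavy chain IIB, which fell from 20.8 to 9.65 FPKM.

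MYL9 encodes a regulatory light chain whose phosphorylation switches the motor on (ENSG00000101335, chr20:36541484-36551447, plus strand). It had 0 reads in both U251 libraries, against 863 and 776 reads in Control and Bru of U87, which are 16.9 and 15.8 FPKM. With U251 set to the floor of 3 reads, U87 stood 334-fold higher in Control and 275-fold higher in Bru. These values are not lower limits. The exact intervals, which allow for the counting error of the 0 reads in U251, began lower, at 271-fold and 223-fold. The log2 ratio in U87 was -0.10 (-0.24 to 0.04). The other regulatory light chains, MYL12A and MYL12B, were present in both lines, and MYL9 made 6.91% and 7.10% of the FPKM of the 3 genes in U87 Control and Bru.

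Tropomyosins lie along the filament and set which proteins may bind it. TPM1 lay at 8.97 and 9.16 FPKM in U251 Control and Bru and at 21.4 and 21.0 FPKM in U87 (ENSG00000140416, chr15:63042632-63071915, plus strand). Its log2 ratio was 0.03 in U251 (-0.05 to 0.12) and -0.03 in U87 (-0.08 to 0.03), the latter turning to 0.02 when reads were scaled to their total. TPM1 therefore separated the lines and not the conditions. The gene length used for TPM1 was 12876 bases, the union of the exons of all its transcripts, which sets its FPKM low where short transcripts are made.

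TPM2 was the only one of the 9 genes past the filter that was higher in Bru by 1.5-fold (ENSG00000198467, chr9:35681992-35690121, minus strand). It lay at 9.98 FPKM in U251 Control and 15.3 in U251 Bru, from 680 and 918 reads. In U87 it lay at 10.3 and 11.6 FPKM, from 604 and 658 reads. The Control libraries were nearly level, and U251 Bru stood above the other 3. The log2 ratio was 0.61 in U251 (0.47 to 0.76) and 0.18 in U87 (0.02 to 0.34). With a pseudocount of 1 the ratio in U251 was 0.57, just under 1.5-fold. FPKM of TPM2 over TPM1 went from 1.11 to 1.66 in U251 and from 0.482 to 0.554 in U87. Both genes were minor members of their family, in which TPM4 made 48.8% of the FPKM in U251 Control and 67.2% in U87 Control, and TPM3 41.3% and 19.4%.

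**Figure D3:**
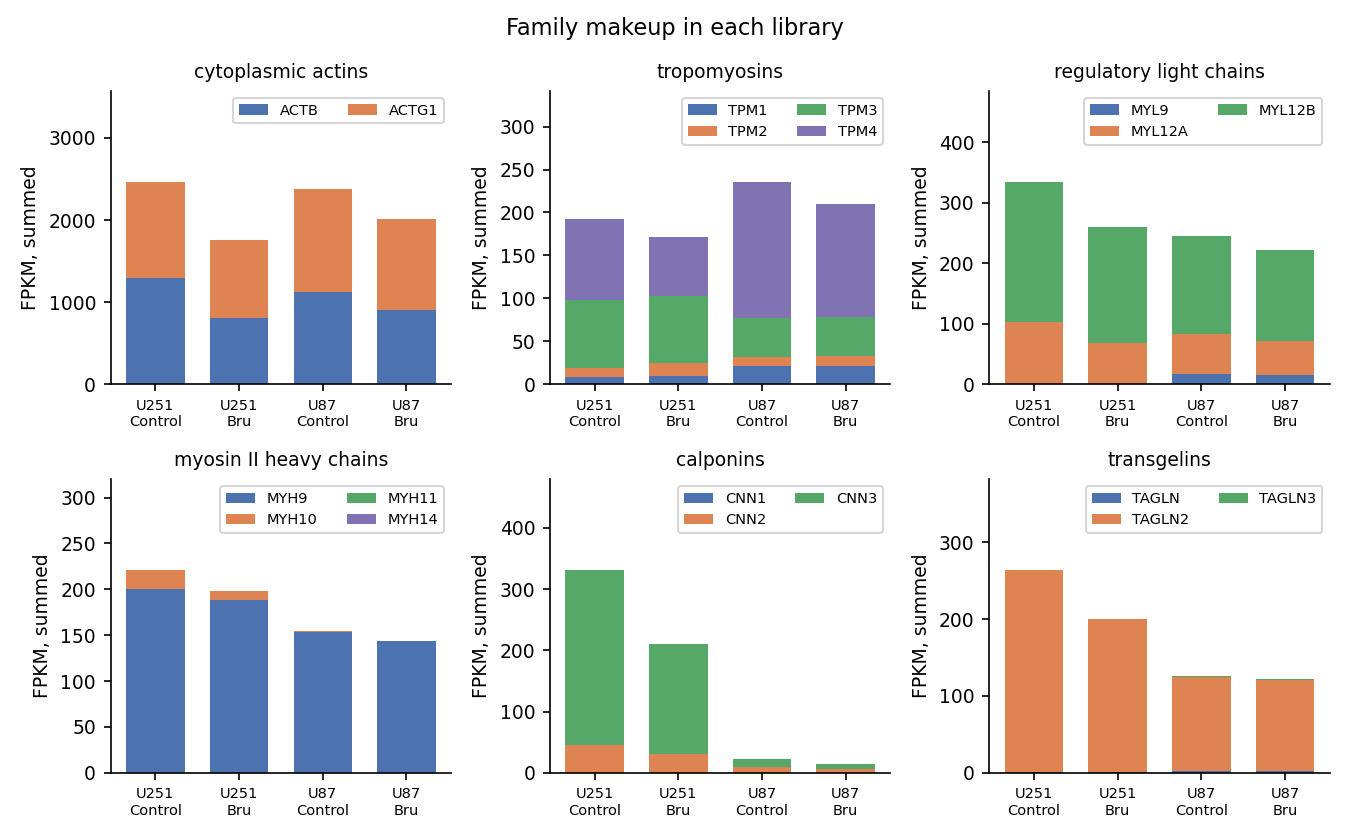
Summed FPKM (y axis, from 0) of 6 gene families in the 4 libraries, with 1 color per gene. On FPKM, which rests on the gene lengths used, ACTB passes from above ACTG1 to below it between U251 Control and U251 Bru. MYL9 appears in U87 alone, and TAGLN and CNN1 are too small to see beside TAGLN2, CNN2 and CNN3.

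The order of the levels was similar in all libraries. ACTB and ACTG1 came first and MYH9 next, followed by SRF, TPM1, TPM2 and, in U87, MYL9, and then by ACTA2, TAGLN and CNN1. Within each library, the interval of the ratio of neighbours in this order left 1 except at 2 places. These were TAGLN over ACTA2 in U251 Bru, with a ratio of 1.18 (0.772 to 1.82), and SRF over TPM2 in U87 Control, with a ratio of 1.09 (0.980 to 1.21). SRF stood above TPM2 in U251 Control, and TPM2 above SRF in U251 Bru. The order also rests on the gene lengths used, which the intervals take as exact. In reads, TPM1 stood above SRF and TPM2 in every library, with 2422 against 1247 and 680 in U251 Control.

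Between the Control libraries, MYL9, TAGLN, ACTA2 and TPM1 were higher in U87 by 2-fold. These were 4 of the 9 genes past the filter, against 14.5% of all genes. Lower in U87 by 2-fold were 0 of the 9, against 16.0% of all genes. TAGLN was 2.80-fold higher in U87 than in U251 (2.05 to 3.87), ACTA2 2.76-fold (2.10 to 3.65) and TPM1 2.38-fold (2.27 to 2.50), beside MYL9 as given above. In U251 alone, MYL9, TAGLN and ACTA2 had a mean under 1 FPKM, so that they passed the filter through U87, where they are higher. TPM2 was 1.03-fold (0.922 to 1.15), ACTG1 1.07-fold (1.06 to 1.08) and CNN1 1.97-fold (0.853 to 4.82). On the other side, U87 stood at 0.869 of the U251 level for ACTB (0.860 to 0.877), 0.792 for SRF (0.725 to 0.865) and 0.768 for MYH9 (0.756 to 0.780). With Bru, the excess of U87 was 5.58-fold for ACTA2 (3.93 to 8.11), 2.47-fold for TAGLN and 2.29-fold for TPM1.

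The log2 ratio in U87 minus that in U251 was then taken for each gene. It was 0.36 for ACTB (0.34 to 0.38), 0.14 for ACTG1 (0.12 to 0.17) and 1.02 for ACTA2 (0.36 to 1.69), so that their ratios were lower in U251. It was -0.43 for TPM2 (-0.65 to -0.22) and -2.39 for CNN1 (-4.42 to -0.44). CNN1 lay below the filter, on between 6 and 17 reads per library. With a pseudocount of 1 its log2 ratios were 0.18 in U251 and -0.24 in U87. For TAGLN, TPM1, SRF and MYH9 the interval held 0. For MYH9 it ran only from -0.05 to 0.02, while for TAGLN it ran from -0.84 to 0.48. All these intervals take the library sizes inside the FPKM as exact. With reads scaled to their total, the log2 ratio of MYH9 was 0.004 in U251 and -0.06 in U87, further apart than on FPKM. With 1 library per line and condition, the differences between lines were not tested over cultures.

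The wider pathway was read from lists of genes with known roles, as counts past 1.5-fold on FPKM + 0.1 beside the shares of all genes given above. MRTFA, with 4.92 and 4.88 FPKM in U251 and 2.33 and 2.34 FPKM in U87, was nearly level within each line, and MRTFB lay between 2.50 and 2.81 FPKM. The log2 ratio in U251 and U87 was -0.01 and 0.01 for MRTFA and -0.13 and -0.10 for MRTFB.

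Other targets of the actin and MRTF branch numbered 19, with 17 past the filter. In U251, 6 fell and 1 rose, and in U87 0 fell and 1 rose. Their median was -0.44 for U251 and -0.09 for U87. CTGF, a matricellular growth factor, fell from 480 to 175 FPKM in U251 and lay at 35.6 and 32.5 FPKM in U87. VCL, the adhesion protein vinculin, fell in U251 with a log2 ratio of -0.59 and had -0.24 in U87. FLNA, which crosslinks filaments, had -0.24 and -0.04. TUFT1 rose in U251 with a log2 ratio of 0.85 and had 0.20 in U87. ANKRD1, a nuclear muscle stress protein, had -0.44 in U251 and rose from 0.336 to 1.13 FPKM in U87, on only 12 and 39 reads. Whether MRTF and SRF or other regulators of these genes lay behind the changes was not tested.

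Of the 10 genes of the ternary complex branch, 9 passed the filter, of which 4 fell in U251 and 2 rose in U87. Its median was -0.40 for U251 and 0.18 for U87 on the log2 scale. FOSB had 0.07 and 1.69, FOS -0.34 and 0.85, and NR4A1 -1.16 and 0.39, in U251 and U87. SRF itself, which both branches share, stayed within its counting error in both lines.

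Paralogs of the contractile genes, 6 in number, had 5 past the filter. CNN3 fell in both lines, with a log2 ratio of -0.67 in each, and was the only one of the 5 past 1.5-fold in either. CNN2 had -0.57 and -0.52, and TPM4 -0.45 and -0.27. The median was -0.45 in U251 and -0.27 in U87. Among the 14 genes of myosin II and its regulators, 10 passed the filter, of which 3 fell in U251 and 0 in U87, with medians of -0.20 and -0.07. These 3 were MYH10, MYLK, the kinase of the light chains, with -0.67, and MYL12A with -0.60.

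The 14 genes of monomer binding and filament turnover all passed the filter, with medians of -0.10 (U251) and -0.15 (U87). Past 1.5-fold, 2 fell and 1 rose in U251 and 0 passed in U87. TMSB4X, thymosin beta 4, which stores actin monomers, fell from 871 to 464 FPKM in U251 and went from 1043 to 771 FPKM in U87. GSN, the severing protein gelsolin, fell with a log2 ratio of -1.40 in U251 and had -0.53 in U87. The gene that rose in U251 was CFL2, while CFL1 had -0.20 and -0.15, CAP2 had -0.42 and -0.56, and PFN1, which feeds monomers to filaments, had 0.36 and 0.07. In the Arp2/3 complex, which starts branched filaments, 7 of 8 genes passed the filter and 1 fell, ARPC5 in U251 with -0.73, against -0.38 in U87. ACTR3 had -0.17 and -0.35 and ARPC1A -0.30 and -0.28. The medians of the complex were -0.12 and -0.07.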

How the data were processed

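RNA of 1 library per condition was measured in U251 and U87, as Control and Bru. Per the labels, 3 µg of RNA went into each library (NEB Next Ultra kit) and read pairs were sequenced. The authors deposited FPKM per gene, together with gene length in bases, symbol and coordinates. The submitters' processing notes name HISAT2 2.0.5, StringTie 1.3.3b, featureCounts 1.5.0-p3 and DESeq2 1.16.1, and hg18 as the build. The coordinates of 58690 of the 58735 genes are those of GENCODE release 29 on GRCh38. Whether strand was used in counting is not given in the sources used here.

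FPKM times length was a whole multiple of 1 step for 100% of values (tolerance 0.01 reads), which gave the reads. The library sizes inside the FPKM were 20974002, 18533374, 18070193 and 17406238 for U251 Control, U251 Bru, U87 Control and U87 Bru. Reads on genes added up to 21453561, 17847910, 18260975 and 17083896 in the same order. These totals lay above the sizes in both Control libraries and below them in both Bru libraries. Ratios of Bru over Control are therefore lower on FPKM than on totals. Scaled to totals, the log2 ratio of ACTB was -0.59 in U251 and -0.28 in U87. At this depth, 3 reads on a gene of 1 kilobase correspond to between 0.143 and 0.172 FPKM. Log2 ratios used FPKM + 0.1 for calls and lists, over genes with a mean of at least 1 FPKM, with cutoffs of 2-fold and 1.5-fold. Intervals are exact Clopper-Pearson intervals of the share of reads in 1 of a pair of libraries, and the conditional exact interval of the odds ratio for differences between lines. Scripts were tested on simulated data. Calculations used python 3.11.15, numpy 2.4.6, scipy 1.17.1 and pandas 2.3.3.

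Named were the 10 genes and, per list, the 3 genes with the largest mean absolute ratio, plus MRTFA, MRTFB, MYOCD, VCL, FLNA, TMSB4X, PFN1, CFL1 and the other actins, and the 3 protein-coding genes nearest to SRF, ACTB and TAGLN by Euclidean distance of the ratios in both lines. Another list and its genes, which the rule also takes in, are not reported here. Other family members, overlapping genes, markers and reference genes were named after their values were seen. The 10 genes and all lists were chosen with earlier results of these data known. Alternatives were another pseudocount (1 or 0.01), 5 other scalings, reads of actin copies added to their parents, no filter or a minimum mean of 0.1 or 5 FPKM, and protein-coding genes only. Protein identity was planned and not run, and identity of coding sequence was used in its place.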

Additional observations from a re-analysis of the deposited data

Results flagged for a closer look

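In 3 of the 35 genes named by the rule, which favors large ratios, the counting intervals of both lines left 0 in opposite directions, lower with Bru in U251 and higher in U87. None of the 10 genes was among them. The log2 ratio in U87 minus that in U251 was 2.20 for ANKRD1 (1.22 to 3.29), 1.60 for NR4A1 (1.31 to 1.88) and 1.19 for FOS (1.10 to 1.27). Over all 12949 genes past the filter, 1.95% met the same condition and 3.20% met it the other way round. Among the 64 pathway list genes, 5 met it, EGR1 and CYR61 beside these 3, and 4 met it the other way round, LPP, PDLIM7, PPP1CB and CAPZA2. The difference was not tested over cultures, since each line and condition has 1 library.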

How the results depend on the processing

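No paired analysis was possible within a line because each condition has 1 library, and for the same reason no library could be left out. The lines were not pooled into 1 fit. The count of the 9 genes past 1.5-fold in U251 fell from 3 to 1 with a pseudocount of 1, which left ACTB. In U87 it rose from 0 to 1 with no filter and to 1 with a minimum mean of 0.1 FPKM, in both cases by CNN1. Under these filters it was 4 in U251, again with CNN1, and it was 2 there at a minimum mean of 5 FPKM. The 2-fold counts stayed at 0 in both lines under all alternatives. Among 152 values of single genes under 8 settings, 8 changed sign, all of them for TPM1 in U87 or SRF and MYH9 in U251, and 2 crossed 2-fold, both for CNN1 in U87 (-1.38 with a pseudocount of 0.01 and -1.27 on TPM). Leaving out MYL9, an alternative chosen after seeing the data, changed no count. The counts of all genes depended on the filter. Past 2-fold were 1140 genes in U251 and 432 in U87, against 4963 and 4335 with no filter, 3727 and 2801 at 0.1 FPKM, 473 and 83 at 5 FPKM, and 700 and 96 among protein-coding genes. Past 1.5-fold were 3471 and 1173, against 10358 and 8138 with no filter, 7686 and 5115 at 0.1 FPKM, and 1840 and 326 at 5 FPKM, and 484 in U87 among protein-coding genes. Of the calls past 2-fold in U251, 705 were lower and 435 higher, but 576 lower and 551 higher with reads scaled to their total. Depth limits CNN1, ACTA2 and TAGLN most, with between 6 and 199 reads per library.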

Other observations

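Beta-actin is often used as a reference for loading or for PCR, so that its level was set beside other genes used in this way, which were chosen after their values were seen. GAPDH, an enzyme of glycolysis, lay at 883 FPKM in U251 Control and 1197 in U251 Bru, and at 925 and 1064 FPKM in U87. TUBB, a beta-tubulin, lay at 791 and 596 FPKM in U251 and at 337 and 286 FPKM in U87. ACTB over GAPDH thus went from 1.47 to 0.675 in U251 and from 1.21 to 0.845 in U87, a log2 change of -1.12 (-1.14 to -1.10) and -0.52 (-0.55 to -0.50). Against TUBB, ACTB changed by -0.27 (-0.30 to -0.25) and -0.09 (-0.12 to -0.05) on the log2 scale.

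The choice of reference moved the size of other ratios. ECM1, the extracellular matrix protein that the study followed, had a log2 ratio of -1.70 in U251 (-2.04 to -1.37) and -0.96 in U87 (-1.21 to -0.71) on FPKM. Relative to ACTB in the same libraries it was -1.02 in U251 (-1.36 to -0.69) and -0.64 in U87 (-0.89 to -0.38). In these 4 libraries a ratio to ACTB therefore gave a smaller fall of ECM1 than FPKM did in each line. RNA levels in FPKM are themselves relative to the library, and the protein was not measured here.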
